A study of Sus scrofa with 6 samples.

Results

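The cytochromes P450, flavin monooxygenases, aldehyde and alcohol dehydrogenases, aldo-keto reductases, glutathione transferases, sulfotransferases and glucuronosyltransferases are the main enzymes that oxidise, reduce and conjugate drugs, dietary compounds and steroids. They were taken from the pig backfat arrays by gene symbol alone, as every symbol that begins with CYP and a digit, FMO, ALDH, ADH and a digit, AKR, GST, SULT or UGT. CYP2B22, CYP2E1, CYP2A19 and ALDH6A1 were left out by the same rule. This gave 54 genes with 83 probe sets, of 6765 named genes and 23999 probe sets on the array. Each gene was read from its brightest probe set over all 6 arrays, and 18 genes had several probe sets. Another 7 probe sets carried several symbols of these families and were left out.

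The arrays compared intact male pigs (boars) with castrated males (barrows), to learn what castration changes in subcutaneous fat. Both groups came from Pietrain sires and Landrace dams, ate without restriction and were killed at an age of 175 days. From each of 15 pairs of full brothers 1 piglet lost both testes by surgery under anesthesia at 7 days and the other stayed intact. Each group had 3 arrays, and each array held a pool of backfat RNA from 5 animals, so that the replicate is a pool and single pigs cannot be seen.

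As background, these enzymes work in sequence. Oxidation or reduction by P450s, FMOs, dehydrogenases and reductases exposes a reactive group, and transferases then attach glutathione, sulfate or glucuronic acid, which makes the product soluble. Liver is their main site, but fat stores lipophilic steroids and toxicants and carries its own set, including enzymes that handle aldehydes from lipid peroxidation, retinoids and sex steroids. In the boar the clearance of the testicular steroid androstenone from fat and liver is of interest because it causes boar taint.

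The 6 arrays were of like quality: the correlation of log2 signals was 0.978 to 0.988 for arrays of the same group and 0.975 to 0.983 across the groups, and median signals ran from 162 to 173. The adipocyte markers ADIPOQ, FABP4, LEP and LIPE were bright, with summed signals of 48004 to 53325 in boars and 44378 to 51356 in barrows. ADIPOQ and FABP4 make up most of that sum. LEP, the leptin gene, was at 946, 1048 and 1115 in boars and 1559, 1690 and 1430 in barrows, and rose 1.50-fold without overlap (limma adjusted p = 0.021). Its call was lost without boar replicate 1 (0.14), boar replicate 3 (0.067) or barrow replicate 1 (0.091), with no intensity trend (0.11) and with the mean of its probe sets (0.070). The liver markers ALB, APOB, TTR and SERPINA1 and the 5 skeletal muscle markers measured lay under the level at which probe sets were tested. APOA1 of the liver list was tested, at 6360 ± 417 in the boar pools and 5692 ± 351 in the barrow pools (mean ± SD, n = 3). RNA of whole backfat was measured, so fewer cells of a type and less RNA per cell cannot be told apart.

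Of the 54 enzymes 31 lay in the upper 60% of probe sets by mean log2(signal + 16) and were tested, and 23 lay below and were not. Of the 31, 4 rose in barrows (ALDH2, ALDH1B1, ALDH1L1 and CYP3A46) and 1 fell (CYP27A1) at a limma adjusted p under 0.05. Among all 14399 tested probe sets 1.16% passed that threshold, 0.701% higher and 0.458% lower. The median difference of the 31 enzymes, as barrow minus boar on the log2(signal + 16) scale, was 0.02 against -0.01 for all tested probe sets. Above 0 lay 16 of the 31 enzymes and 6705 of the 14399 tested probe sets. The median size of the difference without its sign was 0.20 for the enzymes and 0.12 for all tested probe sets. The 2 groups did not overlap in 12 enzymes, 6 higher and 6 lower, and 18.1% of all tested probe sets showed no overlap (8.38% higher and 9.76% lower). The count of 5 fell to 0 without boar replicate 1, to 0 without boar replicate 3, and to 2 each without barrow replicate 1 or barrow replicate 3. The 5 calls were also lost when eBayes was run with no intensity trend. At an unadjusted p under 0.05 there were 13 enzymes in the full comparison, 11 with no trend, 6 without boar replicate 1 and 9 without boar replicate 3. The share of all tested probe sets at that unadjusted level was not counted. This and the later unadjusted counts therefore have no background to be read against.

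**Figure D1:**
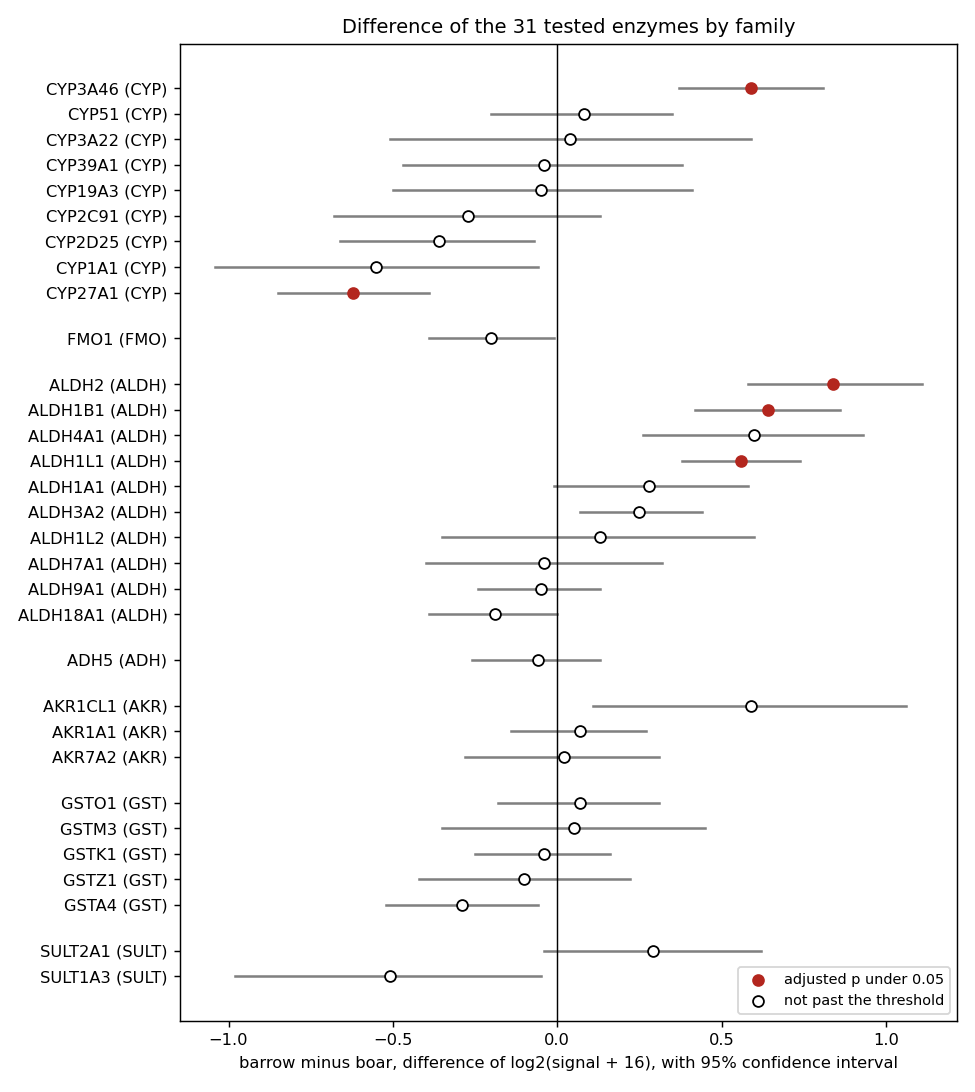
Difference of each of the 31 tested enzymes, barrow minus boar on the log2(signal + 16) scale (x axis), grouped by family (y axis). Points are limma estimates from 3 pools a group with 95% confidence intervals, and filled points passed an adjusted p of 0.05. The filled points are ALDH2, ALDH1B1, ALDH1L1 and CYP3A46 to the right of 0 and CYP27A1 to its left.

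The aldehyde dehydrogenases, which oxidise aldehydes to acids, held 3 of the 4 enzymes that rose. Of 11 members 10 were tested, 3 rose and 0 fell, and 7 of the 10 lay above 0. Their median difference was 0.27. In 5 members all barrow pools lay above all boar pools, and in 1 all lay below. Of all 14399 tested probe sets 0.701% rose and 0.458% fell, and 6705 lay above 0. All barrow pools lay above all boar pools in 8.38% of them, and below in 9.76%. The adipocyte marker LEP rose in the same pools, while ADIPOQ, FABP4 and LIPE differed by -0.07, -0.11 and 0.13 and did not pass. The relation of these markers to the ALDH enzymes was not tested.

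ALDH2, the mitochondrial enzyme that clears acetaldehyde and lipid peroxidation products, gave signals of 1981, 2453 and 1931 in boar pools 1 to 3 and of 3490, 4480 and 3492 in barrow pools 1 to 3. The groups did not overlap, and pool 2 was the highest in both. ALDH2 rose 1.79-fold (95% CI 1.49 to 2.16, limma adjusted p = 0.0095). The differences between pools of the same number were 0.81, 0.87 and 0.85 on the log2 scale, a narrower range than that of the pools within either group.

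ALDH1B1, a related mitochondrial enzyme that also acts on acetaldehyde and retinal, was at 506, 554 and 507 in the boar pools. In the barrow pools it was at 796, 882 and 792. The groups did not overlap, and ALDH1B1 rose 1.56-fold (95% CI 1.34 to 1.81, adjusted p = 0.013). Pool 2 was again the highest in both groups, and the differences by pool number were 0.64, 0.65 and 0.63.

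ALDH1L1, the cytosolic enzyme that oxidises formyl-tetrahydrofolate in one-carbon metabolism, was at 1717, 1888 and 1684 in boars. It was at 2455, 2664 and 2710 in barrows. It rose 1.48-fold without overlap (95% CI 1.30 to 1.67, adjusted p = 0.0096). A dim second probe set of ALDH1L1, under the filter, was at 45.6 ± 31.3 in the boar pools and 26.8 ± 22.6 in the barrow pools (mean ± SD, n = 3), and with the mean of both probe sets the call was lost (0.04, adjusted p = 0.97). ALDH1L2, the mitochondrial counterpart, differed by 0.13 (95% CI -0.35 to 0.60, adjusted p = 0.88).

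Each of these 3 calls was lost without boar replicate 1 (limma adjusted p = 0.080 for ALDH2, 0.098 for ALDH1B1 and 0.082 for ALDH1L1) and without boar replicate 3 (0.067, 0.078 and 0.071). The call of ALDH1B1 was also lost without barrow replicate 1 (0.058) and that of ALDH1L1 without barrow replicate 3 (0.050). The estimates themselves stayed between 0.72 and 0.95 for ALDH2, 0.59 and 0.68 for ALDH1B1, and 0.53 and 0.61 for ALDH1L1 when any pool was left out.

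ALDH4A1, the mitochondrial enzyme that turns pyrroline-5-carboxylate from proline into glutamate, was at 576, 724 and 446 in boars and at 930, 854 and 831 in barrows. The groups did not overlap, but the difference of 0.60 (95% CI 0.26 to 0.93) did not pass over all probe sets (adjusted p = 0.11). It passed without boar replicate 2 (0.76, adjusted p = 0.032) and with array weights (0.64, adjusted p = 0.036). ALDH18A1, which makes pyrroline-5-carboxylate from glutamate in the opposite direction, was at 1018, 989 and 1072 in boars and 865, 948 and 876 in barrows. Its groups did not overlap either, with a difference of -0.19 (95% CI -0.39 to 0.00, adjusted p = 0.42).

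ALDH1A1, which makes retinoic acid from retinal, differed by 0.28 (95% CI -0.01 to 0.58, adjusted p = 0.43). In this brightest probe set the barrow pool exceeded the boar pool of the same number each time, by 0.35, 0.32 and 0.18. A second tested probe set of ALDH1A1 did not repeat this, with -0.02, 0.55 and -0.04 by pool number (difference 0.17, 95% CI -0.36 to 0.69, limma adjusted p = 0.85). ALDH3A2, the fatty aldehyde dehydrogenase of the endoplasmic reticulum, differed by 0.25 without overlap (95% CI 0.07 to 0.44, adjusted p = 0.24). In a dimmer tested probe set of ALDH3A2 the groups overlapped, with a difference of 0.13 (95% CI -0.33 to 0.60, adjusted p = 0.87). ALDH7A1 of lysine breakdown and ALDH9A1 of carnitine synthesis differed by -0.04 and -0.05 (95% CI -0.40 to 0.32 and -0.24 to 0.13). Another tested probe set of ALDH7A1, of like brightness, lay on the other side of 0 (difference 0.27, 95% CI -0.11 to 0.65, adjusted p = 0.58). ALDH5A1, the succinic semialdehyde dehydrogenase, was under the filter, at 63.3 ± 8.48 in the boar pools and 68.8 ± 14.2 in the barrow pools (mean ± SD, n = 3).

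ADH5, the only alcohol dehydrogenase member, oxidises a glutathione adduct of formaldehyde. It was at 3041, 2787 and 2777 in boars and 2506, 3036 and 2702 in barrows, and the groups overlapped (difference -0.06, 95% CI -0.26 to 0.13, adjusted p = 0.84).

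**Figure D2:**
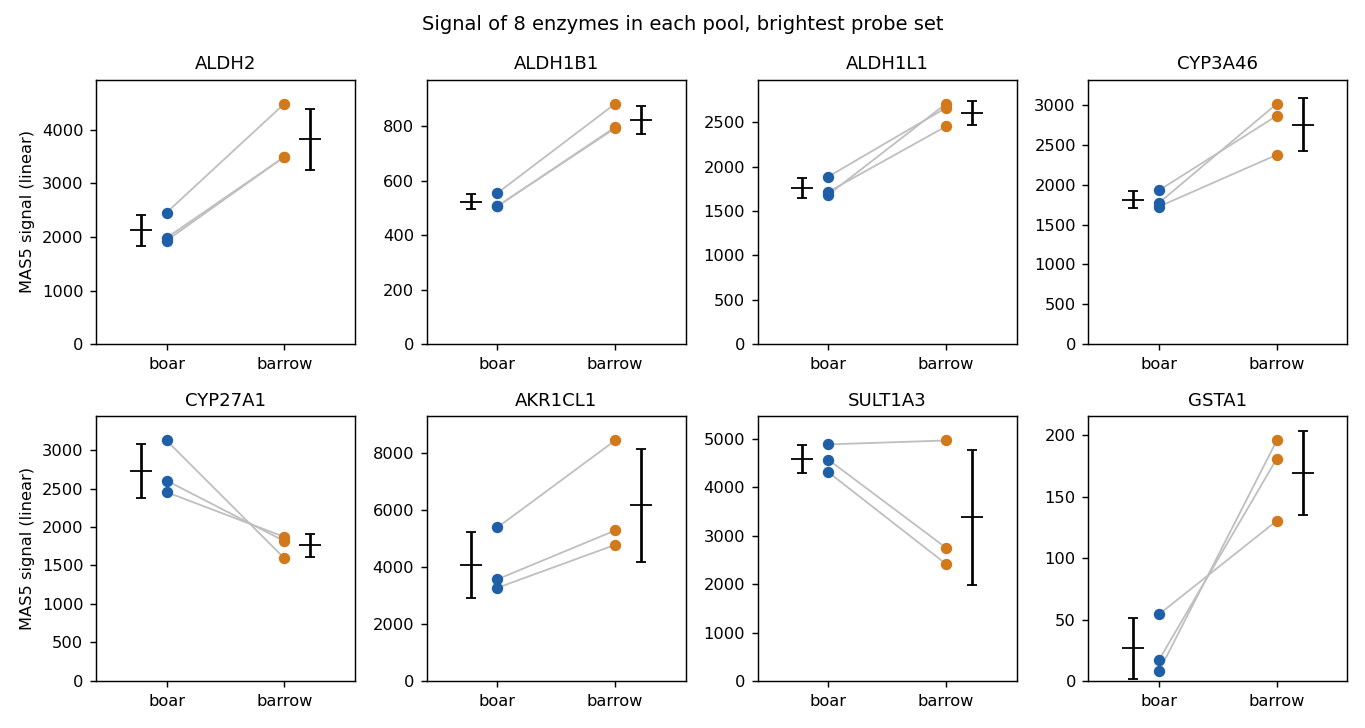
MAS5 signal on a linear axis from 0 (y axis) in boar and barrow pools (x axis) for 8 enzymes, each from its brightest probe set. Points are single pools, grey lines join pools of the same replicate number, and the bars beside them are mean ± SD (n = 3). ALDH2, ALDH1B1, ALDH1L1, CYP3A46 and GSTA1 have all barrow pools above all boar pools, CYP27A1 has them below, and AKR1CL1 and SULT1A3 overlap.

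The P450s, haem enzymes that insert oxygen into steroids, sterols, vitamins and foreign compounds, had 25 members, the most of any family. Only 9 of them were tested. Of these 1 rose and 1 fell, and the groups did not overlap in 5, 1 higher and 4 lower. Among all tested probe sets 0.701% rose and 0.458% fell. The groups did not overlap in 8.38% of all tested probe sets with barrows higher, and in 9.76% with barrows lower. The lower P450s include CYP1A1 and CYP2C91, which lay close to the lower limit of the filter with a mean log2 of 6.91 each. The median difference of the 9 tested P450s was -0.05, and ran from -0.27 without barrow replicate 2 to 0.05 without barrow replicate 3.

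CYP27A1 is the mitochondrial sterol 27-hydroxylase, which makes oxysterols from cholesterol and starts the acidic route to bile acids. It was at 2603, 3124 and 2453 in boars and at 1817, 1595 and 1871 in barrows. Pool 2 was the highest in boars and the lowest in barrows, and the groups did not overlap. The signal was 1.54-fold higher in boars (95% CI 1.31 to 1.81, limma adjusted p = 0.021). A second probe set of CYP27A1 also fell, by 0.56 on the log2 scale (95% CI of the difference -0.80 to -0.32, adjusted p = 0.038), and the dimmest of the 3 differed by -0.48 without overlap (adjusted p = 0.29). The call in the brightest probe set was lost without boar replicate 1 (adjusted p = 0.098), boar replicate 3 (0.060), barrow replicate 1 (0.069) and barrow replicate 3 (0.050), with differences from -0.69 to -0.52 over all 6 omissions.

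Macrophages are among the cells known to carry CYP27A1. Of 7 macrophage markers tested 6 lay below 0 in barrows, while 6705 of all 14399 tested probe sets lay above 0. Of the 7, 0 passed limma's adjusted threshold (3 at an unadjusted p under 0.05). C1QA passed with the replicate number as a block (-0.44, adjusted p = 0.035), where 2.35% of all tested probe sets passed. The macrophage markers had a summed signal of 8155 to 10503 in boars and 7759 to 9104 in barrows, and CD163 differed by 0.15. Their part in the lower CYP27A1 signal was not tested. The other sterol enzymes did not pass. CYP51, the lanosterol demethylase of cholesterol synthesis, differed by 0.08 (95% CI -0.20 to 0.35) and CYP39A1, the hydroxylase of 24-hydroxycholesterol, by -0.04 (95% CI -0.47 to 0.38). CYP7A1 and CYP8B1, of bile acid synthesis in liver, were under the filter with all 6 signals at or below 50.4 and 31.5.

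CYP3A46 belongs to the CYP3A enzymes, which oxidise many drugs and hydroxylate testosterone. It was at 1773, 1726 and 1930 in boars and at 3015, 2375 and 2865 in barrows, with no overlap. It rose 1.51-fold (95% CI 1.30 to 1.76, adjusted p = 0.020). The call was lost in 5 of the 6 fits that left out a pool: without boar replicate 1 (adjusted p = 0.13), boar replicate 2 (0.052), boar replicate 3 (0.071), barrow replicate 1 (0.095) and barrow replicate 3 (0.083). The estimate ranged from 0.53 to 0.70. Of the other CYP3A members, CYP3A22 differed by 0.04 (95% CI -0.51 to 0.59, adjusted p = 0.97). CYP3A29 and CYP3A39 lay under the filter. The array annotation gives CYP3A39 a gene identifier of its own, but RefSeq lists that symbol as a synonym of CYP3A46, so its probe set may be a second and dim reading of the gene that rose. CYP3A29 was at 58.2, 22.3 and 90.3 in boars and 98.7, 89.6 and 113 in barrows, and CYP3A39 at 18.6, 98.9 and 16.5 against 146, 89.8 and 82.5. Both overlapped between the groups.

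CYP2D25, a pig enzyme known to hydroxylate vitamin D at carbon 25, was at 1151, 1018 and 1220 in boars and 705, 955 and 984 in barrows. Its groups did not overlap, and the difference of -0.36 did not pass (95% CI -0.66 to -0.07, adjusted p = 0.29). CYP1A1, the P450 induced by aromatic hydrocarbons through the AHR receptor, was at 139, 135 and 117 in boars and 61.8, 114 and 81.6 in barrows. It differed by -0.55 without overlap (95% CI -1.04 to -0.06, adjusted p = 0.34). Its mean log2 over the barrow pools was 6.64, under the 6.76 that a probe set needed over all arrays, so CYP1A1 passed the filter through its boar signals. CYP2C91 differed by -0.27 (95% CI -0.68 to 0.13), also without overlap and near that floor, and RefSeq classes it as a transcribed pseudogene, so that it may make no enzyme. The other CYP2C members CYP2C32, CYP2C33, CYP2C36, CYP2C42 and CYP2C49, and CYP2J34, lay under the filter with signals no higher than 70.7.

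Of the P450s that build steroid hormones, CYP11A1, CYP17A1 and CYP19A1 were at or near the bottom of the signal range. CYP11A1, which cleaves the cholesterol side chain, was at 13.0 ± 12.8 in the boar pools and 19.6 ± 9.78 in the barrow pools (mean ± SD, n = 3). CYP17A1, which makes androgen precursors, was at 9.51 ± 1.87 and 6.78 ± 0.769. CYP19A1, an aromatase that turns androgens into estrogens, was at 25.9 ± 4.21 and 23.5 ± 9.99 in the brightest of 4 probe sets. These 3 lay under the filter, and no difference was detectable at such signals. CYP19A3, another of the pig aromatase genes, was tested through 1 bright probe set of 8, at 633, 568 and 464 in boars and 440, 775 and 443 in barrows (difference -0.05, 95% CI -0.50 to 0.41). The 7 other probe sets of CYP19A3 all lay under the filter, with means from 1.55 to 58.5. CYP24A1 and CYP27B1, which break down and activate vitamin D, and CYP26A1, which breaks down retinoic acid, lay under the filter too. CYP27B1 was at 45.0, 81.8 and 60.1 in boars and 33.5, 25.1 and 48.3 in barrows.

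FMO1, a flavin enzyme that oxidises nitrogen and sulfur in foreign compounds, was at 5794, 4799 and 5823 in boars and 4584, 4876 and 4774 in barrows. Boar pool 2 lay within the barrow range, and the difference of -0.20 did not pass (95% CI -0.39 to -0.01, adjusted p = 0.38). FMO5 lay under the filter, at 55.2, 60.9 and 69.3 in boars and 77.4, 70.9 and 76.3 in barrows, without overlap.

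The aldo-keto reductases, which reduce carbonyls and, in the AKR1C group, ketosteroids and prostaglandins, had 5 members. Of the 3 tested 0 passed limma's adjusted threshold, and 1 had an unadjusted p under 0.05. AKR1CL1, an AKR1C-like gene, was at 3567, 5387 and 3268 in boars and at 5282, 8441 and 4777 in barrows. The groups overlapped because pool 2 was far above the others in both, but each barrow pool exceeded the boar pool of its number, by 0.56, 0.65 and 0.55. Its 0.59 higher signal in barrows (95% CI 0.11 to 1.06, 1.50-fold) had an adjusted p of 0.30, and of 0.0033 with the replicate number as a block, where 2.35% of all tested probe sets passed.

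The probe sets of AKR1CL1 went in opposite directions. The dimmest of the 3 was at 416, 753 and 430 in boars and 140, 490 and 169 in barrows, a difference of -1.11 (95% CI -1.96 to -0.27). The adjusted p was 0.25, and the block gave 0.018, so that with the block 1 probe set of this gene rose and another fell. The middle one differed by -0.23 (adjusted p = 0.60). The array annotation gives all 3 the same gene, and AKR1C genes are close copies of each other, so which transcript each one reads is uncertain and AKR1CL1 has no single direction here. AKR1A1, a broad aldehyde reductase, differed by 0.07 (95% CI -0.14 to 0.27), and AKR7A2, which reduces succinic semialdehyde, by 0.02 (95% CI -0.28 to 0.31). AKR1C1 and AKR1E2 lay under the filter, with signals up to 45.4 and 5.98.

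**Figure D3:**
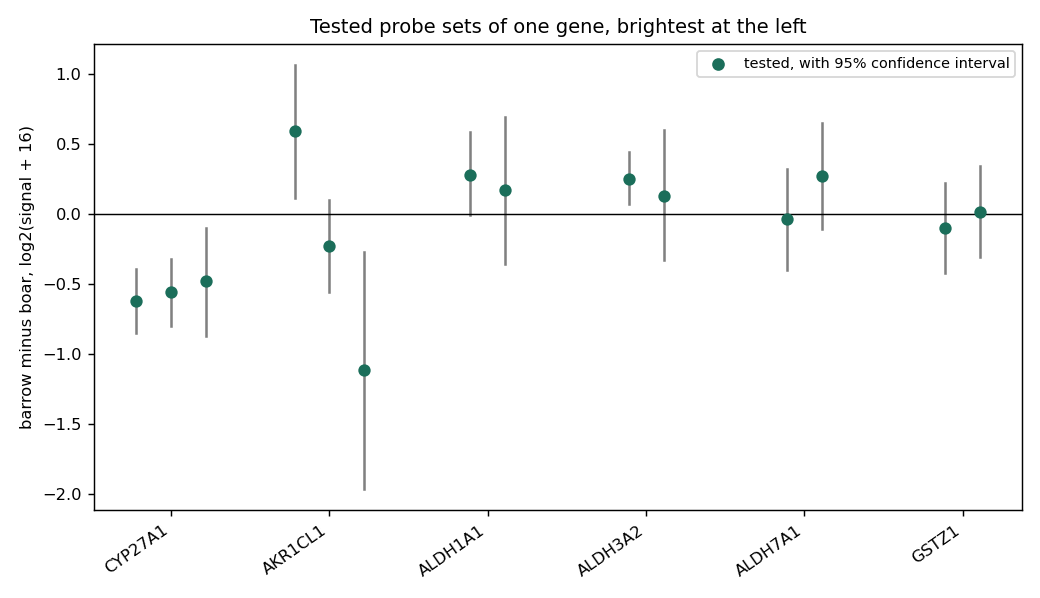
Difference of each tested probe set of the 6 enzymes with several tested ones, barrow minus boar on the log2(signal + 16) scale (y axis), with the brightest probe set of each gene at the left (x axis). Points are limma estimates from 3 pools a group with 95% confidence intervals. The 3 probe sets of CYP27A1 lie together below 0, while those of AKR1CL1 run from 0.59 to -1.11.

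The glutathione transferases couple glutathione to reactive compounds. Of 6 members 5 were tested, and 0 passed limma's adjusted threshold (1 at an unadjusted p under 0.05), with a median difference of -0.04. GSTA4, which clears the lipid peroxidation product 4-hydroxynonenal, was at 738, 657 and 664 in boars and 528, 600 and 549 in barrows. Its groups did not overlap, and the difference of -0.29 did not pass (95% CI -0.52 to -0.06, adjusted p = 0.28). GSTO1, GSTK1, GSTM3 and GSTZ1 differed by 0.07, -0.04, 0.05 and -0.10, each with an interval that spans 0.

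GSTA1, an alpha-class transferase that acts on electrophiles and lipid hydroperoxides, lay under the filter. Its brightest probe set was at 54.3, 7.97 and 17.2 in boars and at 131, 196 and 181 in barrows. The groups did not overlap. A second probe set gave 3.80, 32.0 and 15.1 against 154, 176 and 115, also without overlap, and the third overlapped. In the fit of all 23999 probe sets with no filter, where 0.4% passed, these had limma adjusted p-values of 0.047, 0.022 and 0.89. Whether the boar signals exceed background is not shown by these values, so neither a fold nor a log2 difference is given, and the p-values rest on those dim signals.

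Sulfotransferases and glucuronosyltransferases add sulfate and glucuronic acid. SULT1A3, of the phenol sulfotransferases, was at 4574, 4888 and 4315 in boars and at 2752, 4969 and 2417 in barrows. Barrow pool 2 lay above all boar pools and the other barrow pools lay far below. The difference of -0.51 (95% CI -0.98 to -0.05) had an adjusted p of 0.35, and without barrow replicate 2 it was -0.83 with an adjusted p of 0.0018. With array weights it was -0.67 (adjusted p = 0.038). SULT2A1, which sulfates hydroxysteroids such as DHEA, was at 265, 296 and 225 in boars and 313, 373 and 288 in barrows (difference 0.29, 95% CI -0.04 to 0.62, adjusted p = 0.47). SULT1E1, the estrogen sulfotransferase, was under the filter at 26.1 ± 8.66 in the boar pools and 10.4 ± 9.58 in the barrow pools (mean ± SD, n = 3), and so was UGT2B31, the only glucuronosyltransferase member, at 22.1 ± 7.23 and 25.7 ± 2.43.

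**Figure D4:**
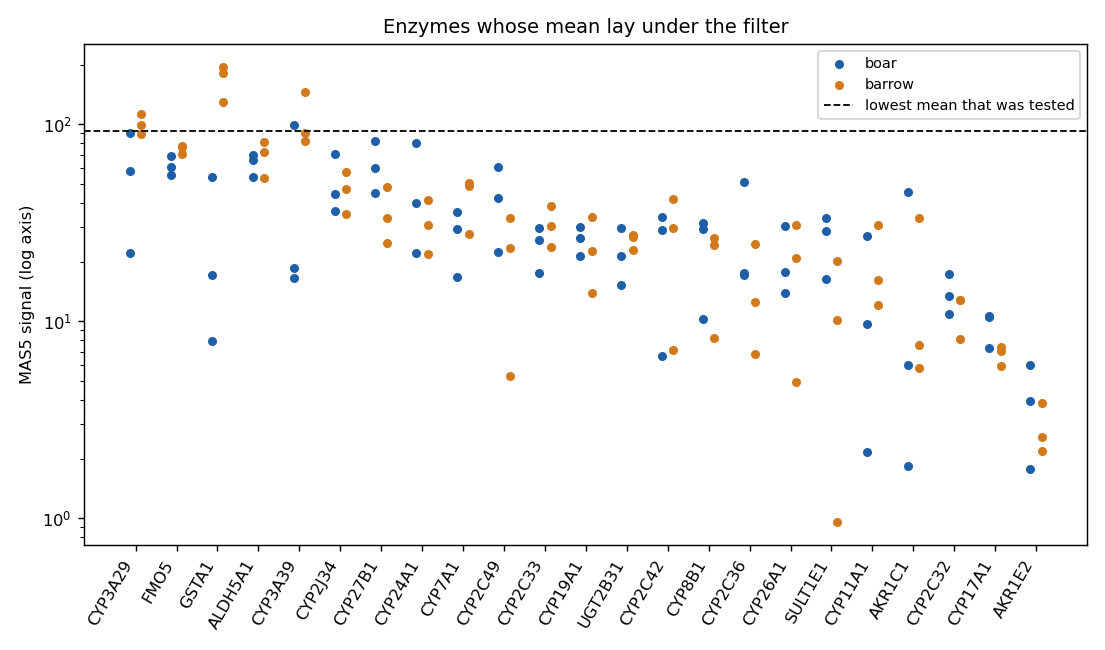
MAS5 signal (y axis, log scale) of the 23 enzymes whose mean lay under the filter (x axis), with 3 boar and 3 barrow pools each. The dashed line marks the signal at the lowest tested mean, 92.7. GSTA1 is the only one with all barrow pools above the line and all boar pools below it.

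Some pools stood apart among the 31 tested enzymes. Barrow pool 2 had the highest signal of the 6 arrays in 11 of them and the lowest in 1, while it was the highest for 19.8% and the lowest for 24.7% of all tested probe sets. Boar pool 3, barrow pool 1 and barrow pool 3 were each the lowest in 8. In the ALDH family the mean log2 signal was 10.38, 10.48 and 10.35 in the boar pools and 10.65, 10.87 and 10.60 in the barrow pools, and pool 2 was the highest of both groups. The standard error of the difference ran from 0.08 to 0.25 with a median of 0.13.

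Enzymes of the same routes outside the symbol rule were read from lists of their own. Among 23 tested genes of other oxidising, reducing and antioxidant enzymes 4 rose and 0 fell, and 18 lay above 0, with a median of 0.10. Of all 14399 tested probe sets 0.701% rose and 0.458% fell, and 6705 lay above 0, with a median of -0.01. The quinone reductase NQO1 was at 1443, 1580 and 1541 in boars and 2401, 2123 and 2869 in barrows and rose 1.60-fold (95% CI 1.36 to 1.89, adjusted p = 0.015). The microsomal epoxide hydrolase EPHX1 was at 800, 941 and 851 against 1267, 1592 and 1347 and rose 1.61-fold (adjusted p = 0.015). The peroxiredoxin PRDX6 rose 1.41-fold (adjusted p = 0.022) and the carboxylesterase CES1 1.85-fold (adjusted p = 5.9e-04). These 4 genes showed no overlap between the groups, while catalase CAT, superoxide dismutase SOD1 and the membrane transferase MGST1 differed by 0.05, 0.10 and 0.05. Leaving out boar replicate 1 ended the calls of NQO1, EPHX1 and PRDX6 (limma adjusted p = 0.11, 0.11 and 0.15), and so did leaving out boar replicate 3 (0.078, 0.082 and 0.14). The call of NQO1 was also lost without barrow replicate 1 (0.067), that of EPHX1 without barrow replicate 3 (0.050), and that of PRDX6 without barrow replicate 1 (0.058), without barrow replicate 3 (0.059) and with no filter (0.057). With no intensity trend all 3 were lost (0.11 for NQO1, 0.098 for EPHX1 and 0.15 for PRDX6). CES1 kept its call in every fit run.

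CBR1, a carbonyl reductase of ketosteroids, prostaglandins and quinones in the same list, lay under the filter too. It was at 0.317, 8.80 and 21.4 in boars and at 278, 469 and 241 in barrows. The groups did not overlap, and the adjusted p was 0.0037 in the fit without a filter. Its boar signals, like those of GSTA1, are at the bottom of the range, so the size of the difference is not given and the p-value rests on them.

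Among 13 tested genes of steroid and retinoid conversion 1 rose and 0 fell (against 0.701% and 0.458% of all tested probe sets), with a median of 0.05. It was DHRS7, a short-chain dehydrogenase known to act on steroids and retinoids, at 1598, 1762 and 1452 in boars and 2476, 3221 and 2556 in barrows. It rose 1.70-fold (95% CI 1.43 to 2.02, adjusted p = 0.010), a call that ended when boar replicate 1 (adjusted p = 0.080) or boar replicate 3 (0.072) was left out, and with no intensity trend (0.098). The retinal reductase RDH11 differed by 0.38 without overlap (adjusted p = 0.15). The electron donor of microsomal P450s, POR, was at 1108 ± 114 in the boar pools and 1156 ± 68.0 in the barrow pools (mean ± SD, n = 3), a difference of 0.06.

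Of 14 tested genes that supply electrons and co-substrates 0 passed limma's adjusted threshold (3 at an unadjusted p under 0.05), with a median of 0.02. With the replicate block, where 2.35% of all tested probe sets passed, 1 rose. This was the cytochrome b5 reductase CYB5R1, which differed by 0.44 and had an adjusted p of 0.17 that came to 0.043 once the block was added. MAT2A, which makes the methyl donor S-adenosylmethionine, and the cytochrome CYB5B differed by -0.35 and -0.40 without overlap (adjusted p = 0.090 and 0.12). MAT2A passed without barrow replicate 2 (0.027) and with array weights (0.020), and CYB5B without boar replicate 2 (0.043) and with array weights (0.041). The glutathione synthesis genes GCLC, GCLM and GSS differed by -0.03, 0.04 and 0.00.

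Of 7 tested regulators 0 passed limma's adjusted threshold (1 at an unadjusted p under 0.05), with a median of -0.06. AHR differed by 0.19 (adjusted p = 0.76), and NR1H3, the oxysterol receptor LXR alpha, by -0.38 without overlap (adjusted p = 0.13), at 770, 843 and 785 in boars and 576, 682 and 576 in barrows. NR1H3 passed without barrow replicate 2 (adjusted p = 0.044) and with array weights (0.038). NR5A1 had the next smallest p, with a difference of 0.45 (adjusted p = 0.45), and passed the filter through its barrow signals, since its boar mean log2 was 6.64. The xenobiotic receptor NR1I2 lay under the filter. Of 7 tested transporters 6 lay below 0, while 6705 of all 14399 tested probe sets lay above 0. SLC22A3, a carrier of organic cations, fell, against 0.458% of all tested probe sets. Its signals were 1350, 1108 and 1285 in boars and 683, 647 and 592 in barrows, 1.92 times as high in boars (adjusted p = 0.0027). The efflux pump ABCG2 differed by -0.17 without overlap (adjusted p = 0.51).

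Markers of other cells moved with these groups to differing degrees. All 8 tested endothelial markers lay at or below 0, while 6705 of all 14399 tested probe sets lay above 0. TEK was past the threshold (-0.47, limma adjusted p = 0.047), and 0.458% of all tested probe sets fell. The summed signals of the 8 were 15946 to 16576 in boars and 14052 to 14820 in barrows. The call of TEK was lost without boar replicate 1 (adjusted p = 0.25), boar replicate 3 (0.24), barrow replicate 1 (0.19) or barrow replicate 3 (0.10). It was also lost with no filter (0.068), median scaling (0.061), no intensity trend (0.15) and the mean of its probe sets (-0.12, adjusted p = 0.87). Of the 4 epithelial markers measured only KRT8 was tested, at -0.20, and the summed signal was 253 to 339 in boars and 320 to 421 in barrows. EPCAM and CDH1, both under the filter, were higher in every barrow pool than in any boar pool (31.5 ± 13.5 against 80.3 ± 11.2, and 63.0 ± 3.28 against 106 ± 32.4, SD, n = 3 each). KRT18, under the filter too, overlapped between boars and barrows (54.1 ± 32.8 against 55.2 ± 33.0, SD, n = 3 each). GSTA1 and CBR1, which epithelia also carry, were higher in barrows. The part of other cell types in the enzyme differences was not tested.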

How the data were processed

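Signal was measured on 6 Affymetrix Porcine arrays, 3 pools of boars and 3 of barrows. The deposited table holds 1 linear signal intensity per probe set and array, made with MAS5 per the submitters' processing notes, with version and settings not given in the sources used here. The 2% trimmed mean was 500.09 to 500.1 on every array, tested on the values. Detection calls were not used here, so whether a signal exceeds background is unknown. Precision is limited by the small number of arrays.

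The 124 control probe sets were left out. No rescaling was added to that of the authors. Values were taken as log2(signal + 16), and limma compared the groups over the brightest 60%, or 14399 probe sets (mean log2 of at least 6.76). It was limma 3.58.1 in R 4.3.3 (lmFit, eBayes with intensity trend, 2-sided), with Benjamini-Hochberg adjustment over all of them. The script was tested on simulated data. Folds refer to log2(signal + 16) and understate changes of dim genes. P-values rest on the spread between pools, which eBayes moderates toward that of other probe sets of like brightness, and not on single animals.

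Gene names are from the platform annotation. Of the 54 enzymes 53 were found in RefSeq (Sscrofa11.1) by gene identifier, with 0 changed symbols. The identifier of CYP3A39 was not found, and RefSeq lists its symbol as a synonym of CYP3A46. CYP2C91 is a transcribed pseudogene there, and 52 are protein coding. Neither genome coordinates nor sequences were used here. The members and lists were chosen with earlier results of these data known. Lists are described by counts and medians, with no set test. The text names members past the threshold with or without the block, those with the smallest p in each family and list, those whose probe sets disagree, and steroid P450s. Other members are given by value, and CBR1 and list genes that did not pass were named after their values were seen.

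Boar and barrow pools share the numbers 1 to 3 in the labels. Residuals of same-numbered pools correlated at 0.12, 0.17 and 0.26 and those of other combinations at -0.19 to -0.01. All 3 exceed 0.1, the limit set beforehand, so the number served as a block in an alternative fit. It was kept out of the main comparison because no label says that a number marks the same litters. Residuals cancel within each group, so positive values at the same number bring negative ones at others. The comparison as given has no block, and the value with the replicate number as a block is given where it changes a call. Alternatives were the pseudocount, filter, scaling, trend, array weights, probe set summary, block and leaving out each pool.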

Additional observations from a re-analysis of the deposited data

How the results depend on the processing

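Changing the pseudocount to 1 or 64, normalizing by quantiles, scaling by medians or testing only the upper 40% left 5 enzymes past the threshold. Of 167 probe sets in all, 96 passed with no filter, 32 with no intensity trend, 425 with array weights and 338 with the replicate block, and leaving out a pool gave 24 to 291. The count of enzymes was 0 with no intensity trend (0 ALDH and 0 CYP members) and 0 to 6 when a pool was left out (0 to 4 ALDH, 0 to 2 CYP and 0 to 1 SULT members). With the replicate block 6 enzymes passed, 1 of them an AKR member (AKR1CL1). With no filter 1 GST member passed (GSTA1), and with array weights 1 SULT member. When a pool was left out, the median of the AKR members was 0.02 to 0.16 and that of the CYP members -0.27 to 0.05.

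With the mean of probe sets the difference turned for AKR1CL1 (-0.25), ALDH7A1 (0.12) and GSTA4 (0.15), the last through a dim probe set. With array weights it turned for ALDH1L2 (-0.01) and GSTM3 (-0.01). Leaving out a pool gave -0.06 to 0.16 for AKR7A2, -0.05 to 0.25 for ALDH1L2, -0.25 to 0.11 for ALDH7A1, -0.11 to 0.02 for ALDH9A1, -0.31 to 0.09 for CYP19A3, -0.22 to 0.18 for CYP39A1, -0.13 to 0.33 for CYP3A22, -0.04 to 0.22 for CYP51, -0.12 to 0.00 for GSTK1, -0.11 to 0.25 for GSTM3 and -0.04 to 0.18 for GSTO1. None of these passed the threshold in the comparison as reported, and the cause was not tested. Of 44 enzymes and list genes recomputed, 16 kept direction and side of the threshold in every alternative that gave a value. The replicate block changed no other call of these 44 than those of AKR1CL1 and CYB5R1.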
